A study of Ovis aries with 32 samples.

Results

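Growth-restricted and control adipocytes of fetal sheep were compared after differentiation in culture, 8 libraries against 8. The comparison takes all differentiated libraries of the series, 16 of 32, by the group in each column name, and the other 16 libraries are the undifferentiated preadipocytes. RNA was sequenced from cells of perirenal fat, the visceral depot around the kidney, of near-term singleton fetuses of crossbred Columbia-Rambouillet ewes. Fetal growth restriction (FGR) was produced by keeping pregnant ewes in ambient heat during mid-gestation, which leads to placental insufficiency, and control ewes stayed at a neutral temperature and were pair-fed. The 4 groups of 4 libraries are male control (MCD), male FGR (MFGRD), female control (FCD) and female FGR (FFGRD) adipocytes. All 16 cultures received the same differentiation, the insult was given to the ewe and not to the cells, and no gene was altered. The labels do not say whether the 4 libraries of a group come from separate fetuses, so the p-values measure the spread between these libraries, which may be technical.

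Preadipocytes are fibroblast-like precursors that turn into fat cells when PPARG and CEBPA, the central transcription factors of adipogenesis, switch on the genes of lipid uptake, triglyceride synthesis and lipid droplet coating. Perirenal fat of the fetal lamb is laid down late in gestation and serves heat production at birth. Growth restriction before birth is known for its association with altered fat mass and insulin sensitivity in later life.

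The values are the authors' normalised reads, summed here over the transcripts of each gene of the Ensembl annotation of the sheep assembly Oar_rambouillet_v1.0. They sum to 9.52 to 19.7 M in a library, from about 7.79 to 18.6 M reads as estimated from the smallest step between values. Between FGR and control, 8 measures of the libraries (depth, genes above 0, the share of the 10 highest genes and principal components among them) gave exact permutation p-values, two-sided and within sex, of 0.171 to 0.991. Of 19 markers of mature adipocytes 14 were tested. ADIPOQ stood at 8.59 to 13421 in differentiated cells against 0 to 216 in preadipocytes, but CFD and RETN stayed at or below 5.16 in every differentiated library, and LEP and AQP7 were not analysed here. Of the markers of other cells, 0 of 10 for skeletal muscle, 1 of 9 for endothelium and 3 of 10 for macrophages and leukocytes were high enough to be tested, and PTPRC of leukocytes, CDH5 of endothelium and MYOD1 of muscle reached at most 4.45, 1.79 and 1.79. Other members of these lists were higher in single libraries. PECAM1 of endothelium stood at 272 and CD14 of macrophages at 699 in FCD 2, and CD163 of macrophages at 541 in MFGRD 3. Markers of smooth muscle and pericytes were high, and 8 of 9 were tested. Their list summed to 3255 to 40885 in FGR and 5636 to 37329 in control libraries. ACTA2 ran from 500 to 14008 and TAGLN from 886 to 22895 over the differentiated libraries. Steroidogenic genes of the adjacent adrenal cortex were summed over their list to 28.9 to 388 in FGR and 19.8 to 2052 in control libraries. MC2R stayed at or below 0.974, but FCD 1 held CYP11A1 at 837, HSD3B1 at 684 and STAR at 509. In the preadipocyte libraries CYP17A1 and HSD3B1 were listed at 0 throughout, CYP11A1 reached at most 0.851, and STAR ran from 1.39 to 89.0. The source of these transcripts was not tested. In 5 libraries, MCD 2 and 4, MFGRD 1, FCD 2 and FFGRD 3, values increased little or decreased with the genomic span of the gene, with a slope on the log2 scale of -0.46 to 0.15 for each factor of 10 in span, while the slopes of the other 11 lay at 0.54 to 0.81. This slope is computed from the same gene values, so part of its share of their variance is built in. It accounted for a median of 44.8% of the variance of a gene, growth restriction for 1.63% and sex for 1.63%. For 5 of the 16 libraries the most similar other library had the same FGR status.

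No gene passed the test between FGR and control differentiated adipocytes. Of 11455 genes, 0 (0%) had an adjusted p under 0.05 with a fold above 1.5 (limma with sex in the model), the threshold used for a call throughout. The smallest adjusted p was 0.9998. At an unadjusted p under 0.05 stood 85 genes (0.742%), 46 of them higher in FGR (0.402%) and 39 lower (0.34%), and no gene had its 8 FGR libraries all on one side of its 8 control libraries (0%). The differences between FGR and control were centred on 0, with a median log2 difference of -0.0037 and a median SE of 0.33. A p that misses the threshold does not show equal expression, so the width of the 95% intervals is given as well. For 6969 genes (60.8%) the interval lay within 2-fold in either direction, and for 10820 genes (94.5%) within 4-fold. Of the 14 adipocyte markers 0 had an interval within 2-fold, and their levels varied within the groups with a median SD of 2.25 on the log2 scale against 0.68 over all genes.

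The 21 genes that the study ties to differentiation in its control cells cover lipid storage, fatty acid handling, adipocyte signalling and the cytoskeleton, and 20 of them were tested (SPRED3 reached at most 7.81 in any differentiated library). They were chosen by the study on libraries that include the 8 controls used here. None passed the test in either direction, 10 were higher and 10 lower in FGR, and their median log2 difference was -0.02 against -0.0037 over all genes. FABP4, the fatty acid carrier of adipocytes, ranged over 3366, 10561 and 154950.0 normalised reads (lowest, median and highest) in FGR and over 215, 11006 and 167630.0 in control libraries. ADIPOQ, which encodes the hormone adiponectin and lies on chromosome 1 from 218921967 to 218933226, had 146, 1086 and 10713 in FGR and 8.59, 1795 and 13421 in control libraries. Both groups thus held libraries with very little and with very much of either transcript, and they overlapped throughout. The log2 differences were 0.30 ± 1.14 (SE, 8 and 8 libraries) for FABP4 and 0.10 ± 1.32 for ADIPOQ, with 95% intervals of -2.11 to 2.72 and -2.71 to 2.90. The triglyceride synthesis enzyme DGAT2 (-0.05 ± 1.33), the lipid droplet coats PLIN1 (-0.05 ± 1.11) and PLIN4 (-0.25 ± 1.05), hormone-sensitive lipase LIPE (-0.47 ± 1.14), the acyl-CoA synthetase ACSL1 (-0.14 ± 0.90), the FGF21 co-receptor KLB (-0.06 ± 1.22), the lipogenic factor THRSP (0.07 ± 1.43) and CEBPA (0.13 ± 0.84) were estimated as loosely. For all of these genes a difference of 2-fold in either direction was inside the 95% interval.

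Other genes of the 21 were measured more tightly. LRRFIP1, a regulator of transcription and cytoskeleton, lay at 1229, 2472 and 4279 in FGR and 1335, 2599 and 5080.3 in control libraries, a log2 difference of 0.01 ± 0.29 with an interval of -0.60 to 0.62. The actin-bundling protein PLS3 had 1083, 1409.5 and 2578 and 1327, 1710.3 and 4372, with 7 of 8 FGR libraries below the control median, a difference of -0.38 ± 0.25 and an interval of -0.91 to 0.15. The intervals of LRRFIP1 and PLS3 stayed within 2-fold, and those of the remaining genes did not. FKBP5, a co-chaperone of the glucocorticoid receptor, differed by 0.32 ± 0.40 and ZBTB16, another glucocorticoid target, by 0.45 ± 0.63. For fuel use, PDK4, the kinase that restrains pyruvate oxidation, differed by 0.33 ± 0.65 and the peroxisomal transporter ABCD2 by 0.47 ± 0.68. Genes of actin filaments and matrix differed by 0.27 ± 0.56 (tropomyosin TPM2), -0.40 ± 0.38 (NEXN), -0.07 ± 0.65 (LMO7) and -0.09 ± 0.57 (periostin, POSTN).

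**Figure D1:**
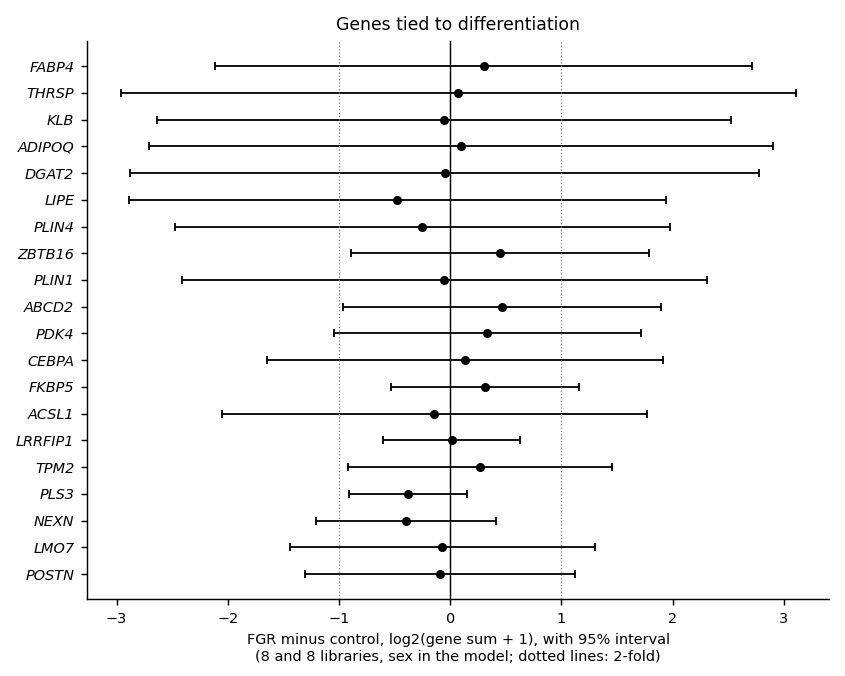
Difference between 8 FGR and 8 control differentiated libraries for 20 genes tied to differentiation, as log2(gene sum + 1) on the horizontal axis, with points for the estimate, bars for its 95% interval and dotted lines at 2-fold. Every interval holds 0, and only those of LRRFIP1 and PLS3 stay between the dotted lines.

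The adipocyte markers differed in opposite directions in the sexes, without any of them passing the test. All 14 tested markers of mature adipocytes had a lower mean in FGR than in control males and a higher mean in FGR than in control females, whereas this combination held for 27% of the 11347 genes tested in both sexes. Their median log2 difference was -1.79 in males and 1.95 in females, against 0.017 and -0.031 over all genes of those fits, and 0.08 with both sexes together. The 15 tested of 18 preadipocyte and fibroblast markers had medians of 0.54 in males and -0.36 in females. All 18 summed to 181317 to 1002320.0 in FGR and 130680.0 to 1683560.0 in control libraries. The collagen genes COL1A1, COL1A2 and COL3A1 were the highest members in every library, so the sums largely follow them. The part of the 18 markers in the adipocyte values was not tested. In bulk libraries, fewer adipocytes and less RNA per adipocyte cannot be told apart. In males ADIPOQ stood at 1233, 6933, 13421 and 8437 in the 4 control and at 10713, 661, 1012 and 146 in the 4 FGR libraries. In females it stood at 991, 497, 2356 and 8.59 in control and at 9579.9, 1160.4, 8954 and 175 in FGR libraries. The library MFGRD 1 reached the level of the male controls, and FFGRD 2 and 4 lay below the highest female control, so the groups overlapped in both sexes. The male log2 difference was -2.46 (interval -5.10 to 0.18, unadjusted p = 0.0648) and the female one 2.65 (interval -1.5 to 6.81, unadjusted p = 0.183) by limma.

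**Figure D2:**
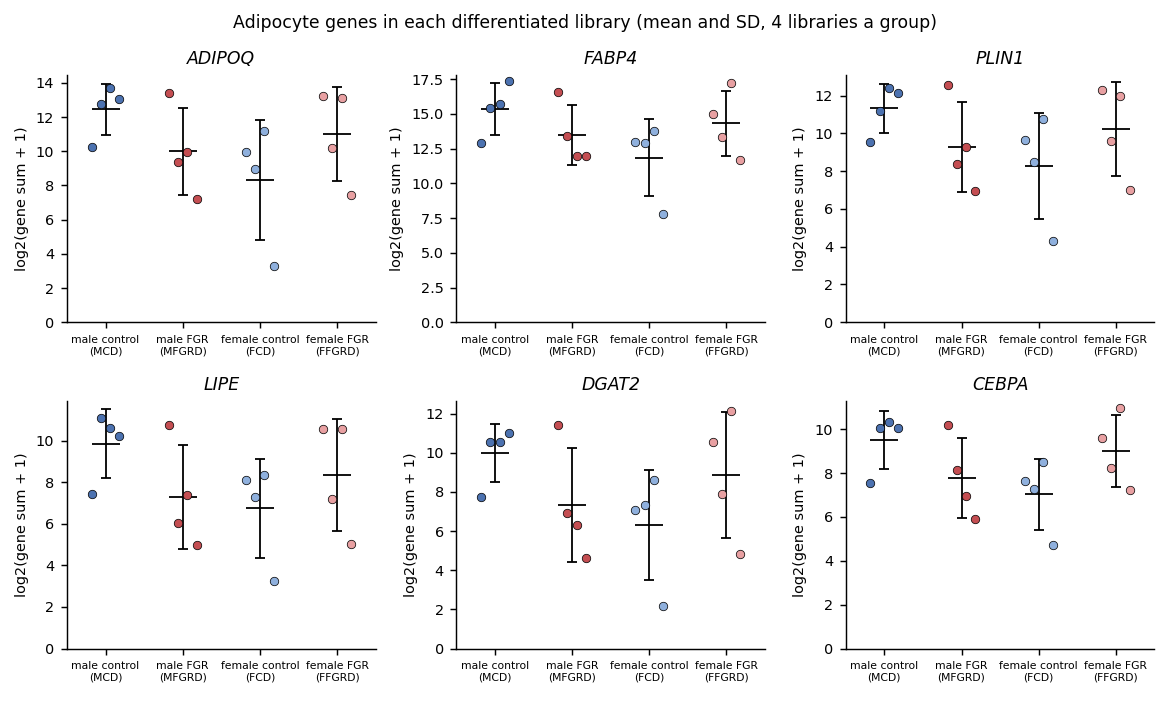
Level of 6 adipocyte genes in each of the 16 differentiated libraries, as log2(gene sum + 1) on the vertical axis, 1 point a library, with a bar at the mean of the 4 libraries of a group and whiskers of 1 SD. In every panel MFGRD 1 lies within or above the range of the male controls, the other 3 MFGRD libraries lie below at least 3 of them, and FCD 4 is the lowest of the 16.

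The same order of libraries recurred from marker to marker, with a median Pearson r of 0.89 over 91 pairs of markers across the 16 libraries. All markers were measured in these same libraries, so the 14 markers are not 14 independent measurements. FABP4 had 7654, 44948, 53192 and 167630.0 in MCD, 98379, 10983, 4058 and 4055 in MFGRD, 8138, 7555, 13873 and 215 in FCD and 32204, 10139, 154950.0 and 3366 in FFGRD. CEBPA had 184, 1062, 1299.7 and 1063 in MCD, 1155, 279.6, 123 and 58.7 in MFGRD, 198, 152, 359.9 and 25.6 in FCD and 770.0, 296, 2024 and 149 in FFGRD. In both genes MCD 1 was the lowest of the male controls and MFGRD 1 the highest of the male FGR libraries. LPL, the lipase that frees fatty acids from circulating lipoproteins, had 591, 1441, 6447 and 515 in MCD, 1354, 945, 195 and 296 in MFGRD, 1242, 148, 1033 and 65 in FCD and 1390.2, 2362, 1327 and 1332 in FFGRD. It was the 1 marker of the 14 whose female groups lay apart, all 4 FGR above all 4 control libraries (81 of 11455 genes, 0.707%, did so in either direction), with a female log2 difference of 2.21 (interval 0.18 to 4.24) against -1.31 in males (interval -3.24 to 0.62). KLB had a male difference of -2.21 (interval -4.14 to -0.29), the 1 marker with an unadjusted p under 0.05 in males (limma, 0.0285, adjusted p = 0.9998).

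The difference between the sexes was tested directly, as the FGR effect in males minus that in females. No gene passed, 0 of 11455 (0%), with 233 (2.03%) at an unadjusted p under 0.05 and a smallest adjusted p of 0.992 (limma). Among the markers, 5 of 14 had an unadjusted p under 0.05. By limma these were LPL at -3.52 ± 1.36 (unadjusted p = 0.0203), CEBPA at -3.68 ± 1.45 (unadjusted p = 0.0227) and PPARG at -2.92 ± 1.19 (unadjusted p = 0.0263), with TRARG1, a GLUT4 trafficking protein, at -4.75 (unadjusted p = 0.0311) and ADIPOQ at -5.11 ± 2.39 (unadjusted p = 0.0493). DGAT2 and ACSL1, which are not on the marker list, had -5.20 ± 2.41 (unadjusted p = 0.0474) and -3.49 ± 1.63 (unadjusted p = 0.0493) by limma. The sign of the difference was negative for 14 of 14 markers with each of the 16 libraries left out in turn, while their median ran from -4.76 without MFGRD 1 to -2.69 without FCD 4 around -3.78, and the number with an unadjusted p under 0.05 ran from 1 (without MFGRD 4 or FCD 4) to 11 (without MFGRD 1 or FFGRD 4). The slope on genomic span moved with the markers (Pearson r = -0.48 with their mean level over the 16 libraries). Of the 5 libraries of low slope, MCD 2, MCD 4, MFGRD 1 and FFGRD 3 had mean marker levels of 9.68, 9.92, 10.4 and 10.5 on the log2 scale, and FCD 2 one of 7.01. Without the 5 libraries of low slope the median difference between the sexes was -3.50 over 12 markers, and with the slope in the model it was -3.32. In males alone the median of the 14 markers was -1.79 with all libraries. It ran from -2.80 without MFGRD 1 to -1.31 without MFGRD 4. Without MFGRD 1, 13 of 14 had an unadjusted p under 0.05 by limma, as did 827 of all 11367 genes, and 0 were called. The number was 10 without MCD 1, 1 without MFGRD 3, and 0 without MCD 2, 3 or 4 or MFGRD 2 or 4. With both sexes together the median of 0.08 ran from -0.63 without FCD 4 to 0.44 without MFGRD 4. The library FCD 4 had the lowest mean marker level, 3.12, and decided much of the female values, whose median was 1.95 with it and 0.86 without it.

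**Figure D3:**
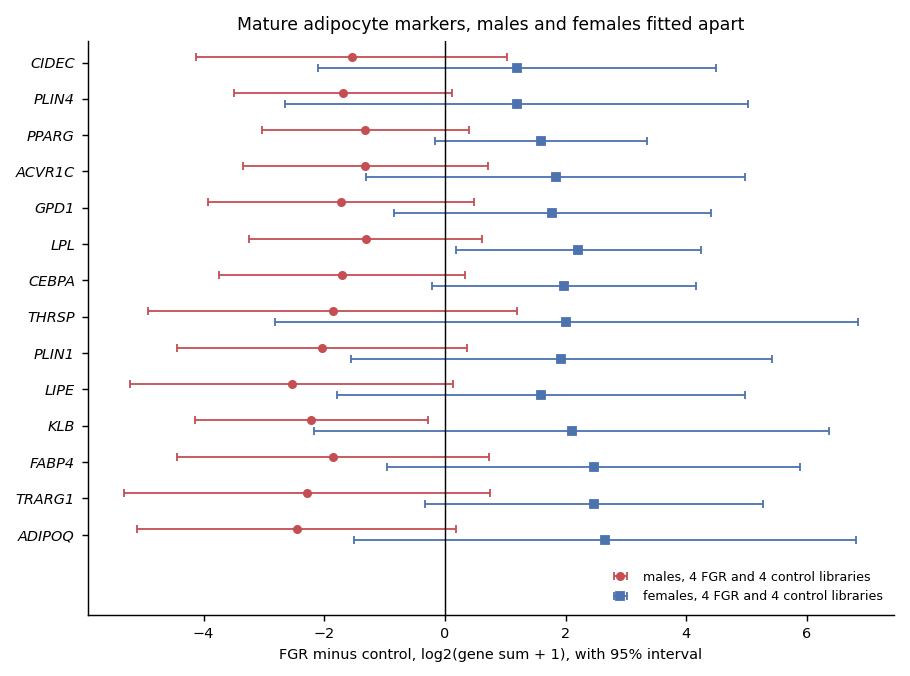
Difference between FGR and control for the 14 tested mature adipocyte markers, as log2(gene sum + 1) on the horizontal axis, with males (circles) and females (squares) fitted apart on 4 and 4 libraries and bars for the 95% interval. All male points lie below 0 and all female points above it, and all intervals hold 0 except those of KLB in males and LPL in females.

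With no gene called, those with a name, a fold above 1.5 and the smallest unadjusted p are described as not passing the test, and the adjusted p of each was 0.9998 (limma). Among those higher in FGR, MEIS3, a homeobox transcription factor, ranged over 60.9, 133 and 196 in FGR and 27.4, 73.5 and 142 in control libraries (chromosome 14, 57851553 to 57860896). COL18A1, which encodes the basement membrane collagen XVIII, had 1596, 2962 and 4445 in FGR and 470.4, 1701 and 3517 in control libraries. For MEIS3 7 of 8 FGR libraries and for COL18A1 6 of 8 lay above the control median, the groups overlapped, and the log2 differences were 0.90 ± 0.32 (unadjusted p = 0.0119) and 0.98 ± 0.36 (unadjusted p = 0.0144) by limma. SNTB1, a syntrophin of the dystrophin complex, had 16.3, 20.5 and 35.2 in FGR and 8.47, 12.4 and 22.1 in control libraries, a difference of 0.73 ± 0.28, and BEND6, a BEN domain protein, 15.4, 25.4 and 41.2 in FGR and 4.35, 10.7 and 45.3 in control libraries, a difference of 1.02 ± 0.38. All 8 FGR libraries lay above the control median in SNTB1 and in BEND6, but FCD 1 exceeded every FGR library in BEND6. DACT3, which acts on dishevelled, had 8 of 8 FGR libraries above the control median (0.75 ± 0.30). Sclerostin (SOST), a secreted protein of bone, was at low level (5.3, 19.6 and 70.1 in FGR and 0, 5.54 and 25.2 in control libraries, 1.82 ± 0.72). The others were the mitochondrial protein CMC4 (0.64 ± 0.24), the armadillo repeat protein ARMC2 (0.90 ± 0.34) and the glycosyltransferase family member GLT8D2 (0.70 ± 0.27).

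Among those lower in FGR, NEDD4L, a ubiquitin ligase known for the turnover of sodium channels, had 18.9, 46.8 and 123 in FGR and 52, 105 and 329 in control libraries (chromosome 23, 63248568 to 63616207). KCNK1, a background potassium channel, had 9.37, 19.6 and 31.8 in FGR and 17.2, 48.5 and 105 in control libraries, and PCOLCE2, an enhancer of procollagen processing, 10.2, 61 and 106 in FGR and 24.7, 263 and 820.0 in control libraries. In NEDD4L 7 of 8 FGR libraries and in KCNK1 and PCOLCE2 8 of 8 lay below the control median, and 5, 4 and 1 of them lay below every control library. By limma the log2 differences were -1.42 ± 0.44 (unadjusted p = 0.00513), -1.27 ± 0.43 (unadjusted p = 0.00948) and -1.91 ± 0.72 (unadjusted p = 0.017). The values in males and females were -1.52 and -1.32 for NEDD4L and -1.83 and -1.99 for PCOLCE2. The death receptor FAS ranged over 16.5, 57.1 and 114 in FGR and 64.4, 121 and 209.8 in control libraries, with 8 of 8 FGR libraries below the control median (-0.96 ± 0.39). The adhesion protein FLRT3 (-0.89 ± 0.34) and the Nogo receptor homologue RTN4RL2 (-1.32 ± 0.46) also had 8 of 8 below it. Choline kinase alpha (CHKA), of phosphatidylcholine synthesis, differed by -0.66 ± 0.27 and the membrane proteins TMCC3 and TMEM158 by -0.81 ± 0.33 and -1.57 ± 0.64. In TMEM158 the library MCD 2 alone stood at 1105 beside 53.8 to 79 in the other male controls.

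**Figure D4:**
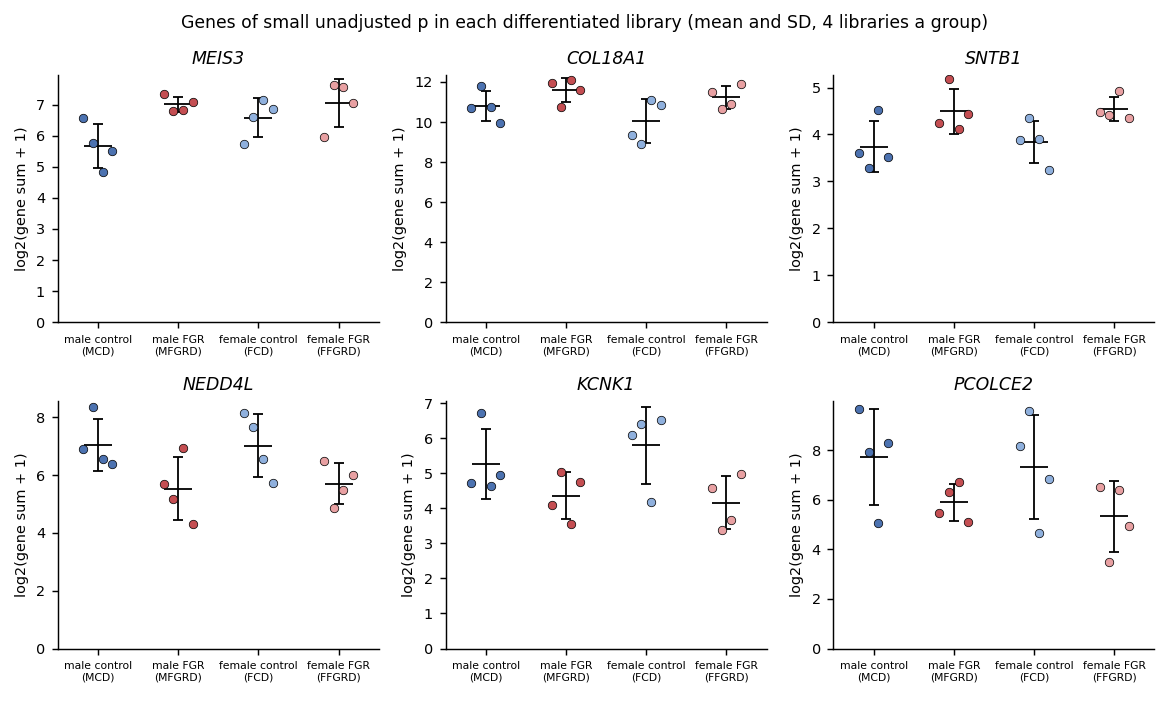
Level of 3 genes with higher and 3 with lower means in FGR in each of the 16 differentiated libraries, as log2(gene sum + 1) on the vertical axis, with a bar at the mean of 4 libraries and whiskers of 1 SD. The groups overlap in each panel, and none of the genes passed the test (adjusted p = 0.9998, limma).

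The smallest unadjusted p of all, 0.000788, belonged to a locus that the annotation names Insig2, a single transcript at chromosome 18, 59156388 to 59157065. Its values were 0, 0, 0 and 56.2 in MCD, 66.7, 40.1, 0 and 47.5 in MFGRD, 0 in all 4 FCD and 20.2, 134, 63.4 and 27 in FFGRD libraries. It was listed at 0 in 7 of 8 control and 1 of 8 FGR libraries. It met the filter, a sum of at least 10 in at least 8 of 16 libraries, only through 7 FGR libraries and MCD 4. Its p-value is therefore not independent of that filter. The log2 difference of 4.19 ± 1.02 (adjusted p = 0.9998) depends on the pseudocount and was 6.65 with a pseudocount of 0.1. Another gene of the same name lies on chromosome 2, from 196713764 to 196726150, and differed by 0.14 ± 0.17 (unadjusted p = 0.421, limma). INSIG2 is known as a brake on cholesterol synthesis. Reads could be split between loci alike in sequence, so the value at chromosome 18 is uncertain.

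Of 777 genes on 29 lists of pathways, 0 were called and 4 had an unadjusted p under 0.05, against 0.742% of all genes. List medians ran from -0.17 to 0.35. The list of de novo lipogenesis had 6 of 17 members higher in FGR and a median of -0.06, with the elongase ELOVL5 (-0.21 ± 0.17) and the desaturase FADS1 (-0.34 ± 0.29) at the smallest p. Triglyceride synthesis and storage had 6 of 21 higher (median -0.05), with the droplet protein FITM2 (-0.44 ± 0.43) and the acyltransferase AGPAT5 (-0.25 ± 0.24). Fatty acid uptake and activation had 6 of 19 higher (median -0.17). VLDLR, the receptor for very low density lipoprotein, ranged over 23.3, 80.4 and 93.2 in FGR and 67.7, 97.4 and 168 in control libraries, with 8 of 8 FGR libraries below the control median, a difference of -0.76 ± 0.32 and an unadjusted p of 0.031. The synthetase ACSL5 differed by -0.60 ± 0.34. By sex the medians of lipogenesis (-0.71 in males and 0.57 in females) and triglyceride storage (-0.75 and 0.57) parted as the markers did. That of fatty acid uptake and activation was -0.57 in males and 0.04 in females. Some members are adipocyte markers as well.

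Lists of lipid breakdown and energy use had medians of -0.17 to 0.09 with both sexes together. Lipolysis and adrenergic signalling had 10 of 21 higher (median -0.05), with lysosomal lipase LIPA (-0.38 ± 0.22) and the protein kinase A subunit PRKACA (-0.30 ± 0.21). Fatty acid oxidation had 22 of 29 higher (median 0.09), with the peroxisomal enzyme HSD17B4 (0.22 ± 0.26). The respiratory chain had 19 of 55 higher (median -0.07), with the complex I subunit NDUFA12 (-0.56 ± 0.38). Of 28 listed genes of thermogenesis, the known task of perirenal fat in the newborn lamb, 24 were found and 12 were high enough to be tested. Of these 12, 5 were higher (median -0.17), with the cytochrome oxidase subunit COX7A1 (-0.64 ± 0.56) and the transcription factor EBF2 (0.42 ± 0.56). COX7A1 was low, at 3.97 to 4.5 in the FFGRD libraries other than FFGRD 3. The male and female medians parted for thermogenesis (-0.53 and 0.71), fatty acid oxidation (-0.28 and 0.50), the respiratory chain (-0.42 and 0.25) and lipolysis (-0.34 and 0.33), none of which was tested. Cholesterol synthesis and transport had 11 of 31 higher (median -0.10), with the synthetic enzymes MSMO1 (-0.37 ± 0.19) and PMVK (0.45 ± 0.30). MSMO1 differed by -0.78 in males and 0.04 in females. Among adipogenic transcription factors 12 of 20 were higher (median 0.14), with the Kruppel-like factors KLF5 (-1.13 ± 0.54) and KLF6 (-0.77 ± 0.48), and among adipokines and receptors 7 of 13 (median 0.02), with ANGPTL2 (0.63 ± 0.31) and C1QTNF2 (-0.57 ± 0.29).

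Pathways tied to fetal growth and stress gave no call. The insulin-like growth factor axis had 10 of 17 members higher (median 0.04). The growth factor IGF1 ranged over 829.7, 1632 and 3652 in FGR and 241, 916 and 3505 in control libraries (0.75 ± 0.48) and the imprinted fetal growth factor IGF2 over 188, 641 and 2152 in FGR and 26.2, 433 and 2343 in control libraries (1.03 ± 0.82), both with overlapping groups and intervals of -0.26 to 1.77 and -0.70 to 2.77. Imprinted genes had a median of 0.07 (9 of 15 higher), with the cell cycle inhibitor CDKN1C (0.52 ± 0.41). Insulin signalling and glucose uptake had 24 of 37 lower (median -0.07), with the glucose transporter SLC2A1 (-0.69 ± 0.47) and hexokinase HK2 (-0.60 ± 0.48). Hypoxia response and glycolysis had 23 of 31 lower (median -0.10), with the oxygen sensor EGLN3 (-0.75 ± 0.56). Heat shock proteins and the unfolded protein response had 27 of 36 lower (median -0.11) and 63.9% of their intervals within 2-fold. Its members of smallest p were PPP1R15A, a phosphatase subunit of the stress response, at 595, 729 and 926 in FGR and 675, 907 and 2076 in control libraries (-0.53 ± 0.25, 7 of 8 FGR libraries below the control median), and the chaperone HSPH1 (-0.45 ± 0.27). The glucocorticoid response had 12 of 19 higher (median 0.16), with the lipase inhibitor ANGPTL4 (0.61 ± 0.36) and stanniocalcin STC1 (-1.43 ± 0.76). Antioxidant defence had 15 of 37 higher (median -0.06), with SESN1 (0.69 ± 0.46) and GPX3 (0.80 ± 0.55).

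Collagens were the list with the highest median, 0.35, and 24 of 25 tested members were higher in FGR (5655 of all 11455 genes were). COL18A1 was the 1 member with an unadjusted p under 0.05, and COL27A1 the 1 member that was lower. COL4A5 of basement membranes differed by 1.37 ± 0.88, COL1A1 by 0.24 ± 0.71 and COL3A1 by 0.19 ± 0.54. Collagen levels followed the slope on genomic span across the 16 libraries (Pearson r = 0.91). That is a description, since the slope is computed from gene values that include the collagens. With the slope in the model the collagen median was 0.34. It ran from 0.09 without MCD 4 and 0.15 without FCD 2, both of low slope, to 0.63 without FFGRD 3. In males the median was 0.84 and in females 0.10, and in preadipocytes it was -0.54. Matricellular proteins and proteases had 22 of 43 higher (median 0.03), with the crosslinking enzyme LOXL3 (0.54 ± 0.38). Actin and contractility had 34 of 47 lower (median -0.06), with filamin C, FLNC (-1.43 ± 0.89).

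Among signalling lists, the Wnt pathway had 19 of 31 lower (median -0.08), with the receptor FZD8 (-0.73 ± 0.41) and the secreted modulator DKK3 (0.54 ± 0.40), and TGF-beta, BMP and activin signalling 26 of 42 lower (median -0.09), with the ligands INHBA (-1.18 ± 0.68) and BMP2 (-1.29 ± 0.79). Inflammatory cytokines and NF-kappaB had 13 of 27 higher (median -6.2e-05), with pentraxin 3, PTX3 (0.56 ± 0.32), and the prostaglandin synthase PTGS2 (-1.10 ± 0.65). In PTGS2 8 of 8 FGR libraries lay below the control median. The interferon response had 76.0% of its intervals within 2-fold, the highest share of the 29 lists, and a median of -0.09, and its members of smallest p were IRF3 (0.36 ± 0.23) and IRF2 (0.34 ± 0.25). Complement had 4 of 9 higher (median -0.02), with MASP1 (-0.65 ± 0.59) and CFB (-0.54 ± 0.60). The cell cycle had 30 of 41 lower (median -0.11). Cyclin E1 (CCNE1) ranged over 36.5, 52.7 and 87.5 in FGR and 53.5, 69.3 and 175 in control libraries, a difference of -0.66 ± 0.29 with an unadjusted p of 0.0371, and the inhibitor CDKN2C differed by -0.44 ± 0.29. DNA and histone modifying enzymes had 29 of 63 higher (median -0.03), with the deacetylases SIRT1 (-0.40 ± 0.25) and HDAC6 (-0.19 ± 0.16). In the circadian clock (9 of 18 higher, median -0.00385) arntl, the positive arm of the oscillator, ranged over 196, 243 and 357 in FGR and 212, 347 and 389 in control libraries, a difference of -0.37 ± 0.17 (unadjusted p = 0.0468, limma), and NR1D1 of the negative arm differed by -0.48 ± 0.35.

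**Figure D5:**
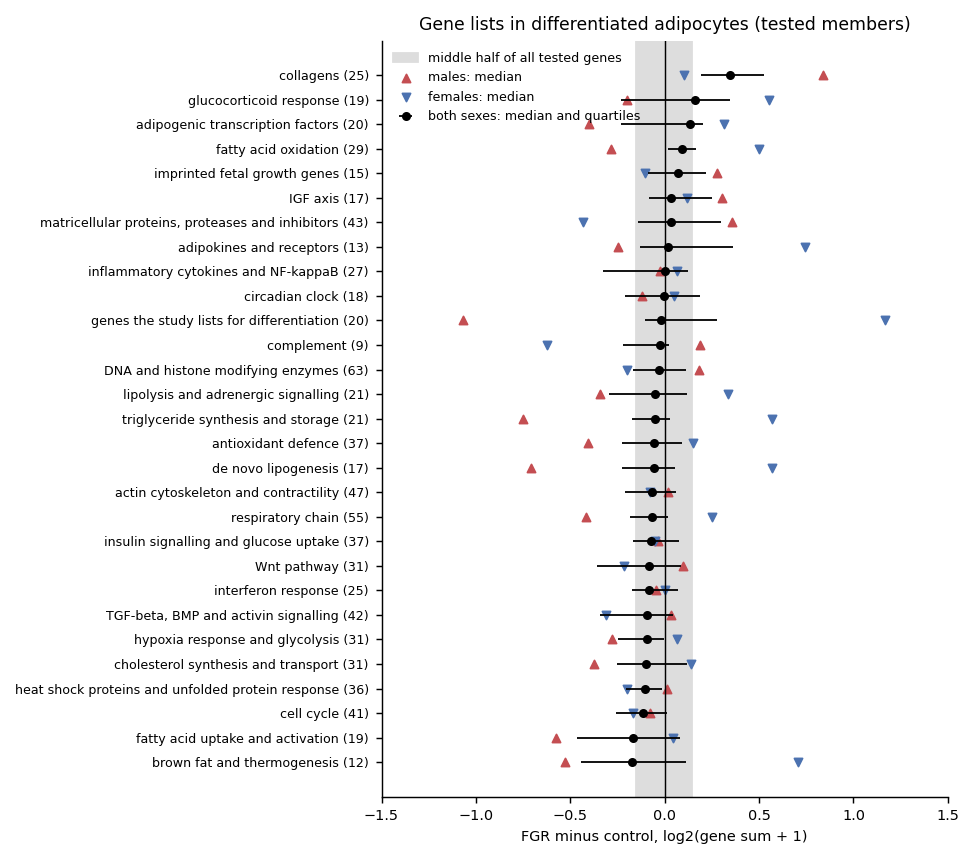
Difference between FGR and control for the tested members of 29 gene lists (their number in brackets), as log2(gene sum + 1) on the horizontal axis, with black points and bars for the median and quartiles with both sexes together, triangles for the medians in males and in females, and a grey band for the middle 50% of all tested genes. The black medians lie between -0.17 and 0.35, and the male and female medians part most for the genes tied to differentiation (-1.07 and 1.16).

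In males alone 0 of 11542 genes (0%) were called, 168 (1.46%) had an unadjusted p under 0.05, and 102 of 11455 (0.89%) had 4 FGR and 4 control libraries apart. The smallest adjusted p, 0.898 (limma), belonged to a gene without a name. PKDCC, a secreted tyrosine kinase, stood at 775, 948, 767 and 830.0 in MCD and 1689, 2301, 1304 and 1809 in MFGRD libraries. All 4 FGR libraries were higher, with a difference of 1.07 ± 0.26 (unadjusted p = 0.0024, limma), while the female difference was 0.04. CCDC8, a scaffold protein of growth disorders, stood at 31.2, 10.2, 9.35 and 65.1 and 66.7, 139.9, 216 and 200.1, a difference of 2.68 ± 0.66 (unadjusted p = 0.0024, limma). MAGOH of the exon junction complex, whose symbol a copy listed at 0 shares, stood at 408, 613, 406 and 663 and 331, 268, 213 and 213, all 4 FGR libraries lower, with a difference of -1.01 ± 0.30 (unadjusted p = 0.00692, limma). HAS2, a hyaluronan synthase, stood at 89.4, 404, 201 and 114 and 82.9, 25.1, 34.1 and 70.7, also apart, with a difference of -1.82 ± 0.57 (unadjusted p = 0.00946, limma). The adjusted p of each of these was 0.9998 (limma).

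In females alone 0 of 11512 genes (0%) were called and 112 (0.973%) had an unadjusted p under 0.05. Beside the Insig2 locus, which had the smallest adjusted p of 0.264, CAPN6, a calpain without protease activity, stood at 6.82, 0, 6.47 and 1.41 in FCD and 33.8, 22.4, 75.7 and 287 in FFGRD libraries, a difference of 4.24 ± 0.96 (unadjusted p = 0.00169, limma). The Insig2 locus and CAPN6 passed the filter, a sum of at least 10 in at least 4 of 8 libraries, only through the 4 FGR libraries. Their p-values are therefore not independent of that filter. TGFBI, a matrix protein induced by TGF-beta, stood at 2548, 3174, 817 and 5195 and 65.6, 257, 229 and 910.4, with 1 FGR library above the lowest control, a difference of -3.31 ± 0.81 (unadjusted p = 0.00279, limma). In males TGFBI differed by 0.80. AGTR2, an angiotensin receptor of fetal tissue, stood at 64.8, 68.7, 48 and 108 and 16.1, 7.07, 43.7 and 21.8, all 4 FGR libraries lower, with a difference of -1.86 ± 0.55 (unadjusted p = 0.00846, limma), against 0.67 in males. The adjusted p of CAPN6, TGFBI and AGTR2 was 0.9999 (limma).

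The genes of smallest p for the difference between the sexes were not adipocyte markers. CFAP45, a protein of cilia, stood at 21.4, 10.4, 18.6 and 19.8 in MCD, 55.7, 61.2, 30.2 and 80.1 in MFGRD, 47.7, 68.7, 72.1 and 69.8 in FCD and 22.1, 39.7, 42.2 and 59 in FFGRD libraries. It was higher in FGR in males (1.61) and lower in females (-0.71), a difference of 2.32 ± 0.55 (unadjusted p = 0.000712) by limma. The carboxypeptidase CPZ went the same way, with 1.60 in males and -1.63 in females. KNG1, which encodes kininogen, and COA7, of cytochrome oxidase assembly, went the other way, with -1.37 and -1.12 in males and 1.55 and 0.59 in females. For each of the 4 the adjusted p was 0.992 (limma). Across the 11347 genes tested in both sexes, the male and female differences had a Pearson r of -0.31 and the same sign in 40.1%, a description across genes, which are not independent.

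Before differentiation 0 of 11550 genes (0%) were called between FGR and control preadipocytes, with 306 (2.65%) at an unadjusted p under 0.05. The effect of growth restriction was compared between differentiated and undifferentiated cells over all 32 libraries, and 0 of 11466 genes (0%) were called, with 98 (0.855%) at an unadjusted p under 0.05 (limma). By limma NEDD4L was among those of smallest p, at -1.98 ± 0.61 for the difference of effects (unadjusted p = 0.00331), with -1.42 ± 0.44 in differentiated cells and 0.56 ± 0.40 in preadipocytes. RNF157, a ubiquitin ligase, was too low to be tested in differentiated cells alone and had a difference of effects of -2.09 ± 0.55. ANGPTL1, a secreted angiopoietin-like protein, and THSD1, a thrombospondin domain protein of vessels, went the other way, with differences of effects of 1.10 ± 0.40 and 1.19 ± 0.44. THSD1 differed by 0.64 ± 0.30 in differentiated cells and by -0.55 in preadipocytes. The adjusted p of all 4 was 0.984 (limma). ADIPOQ, which preadipocytes hold at a median of 11.7, differed by 1.78 ± 0.71 in them, with an adjusted p of 0.804 (limma).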

How the data were processed

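RNA was sequenced from 32 cultures, 4 in each of 8 groups of stage, growth restriction and sex, and the 16 differentiated cultures are compared here. Per the submitters' processing notes the authors used FastQC 0.11.9 (the study's methods name another version). Per those methods the authors kept reads of an average Phred score of at least 34, assigned them to Ensembl transcripts of Oar_rambouillet_v1.0 by Salmon and scaled the libraries by DESeq2. The deposited values are a normalised signal for each transcript and library, not whole reads, so no count test was run. Depth was estimated from the smallest step between the values of a library. Columns of the authors' own comparisons (group means, fold changes and p-values) were not used, and 0 columns of samples were left out.

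Values of 35219 transcripts were summed to 21271 genes (6683 without a name) and tested as log2(sum + 1) by limma 3.58.1 in R 4.3.3, with a trend in the empirical Bayes step and sex as a covariate, or the group means for differences of effects. Genes needed a sum of at least 10 in at least 8 of 16 libraries (4 of 8 within a sex, 16 of 32 over both stages). A fold change on this scale understates that of low genes. A call needed a Benjamini-Hochberg adjusted p under 0.05 and a fold above 1.5. Library measures were compared by an exact permutation test within sex over 4900 arrangements. The number of libraries limits the precision, and the intervals given cover the spread between libraries.

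The members and the gene lists were chosen with earlier results of these data known, and lists are described by counts and medians alone. Genes with a name were chosen as follows, and a few of those chosen are not reported here: up to 10 in each direction with a fold above 1.5 and the smallest p, the 21 genes that the study ties to differentiation, the 2 members of each list with the smallest p, and the 2 in each direction with the smallest p in males, in females, for the difference between the sexes and for the difference between the stages. LPL, PPARG, TRARG1 and the genes of other cells come from the fixed marker lists, and COL1A1, COL3A1 and COL27A1 were added after their values were seen. Alternatives covered the pseudocount, the filter, the scaling, the covariates, library weights, single transcripts and leaving out libraries. Leaving out the 5 libraries of low span slope was chosen after seeing the data. Scripts were tested on simulated data. Sequences were not used here.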

Additional observations from a re-analysis of the deposited data

Results flagged for a closer look

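In 33 of 432 tests, each of the 4 libraries of 1 group in 1 of the 103 named genes or 5 library measures, the highest or lowest library stood apart, with a gap to the next library, as a share of the range of its group, past Dixon's 95% critical value. For genes the gap and the range were taken on log2(sum + 1), while the levels printed beside them are unlogged normalised reads. Chance gives about 1 in 20 such groups. The libraries with a low slope on genomic span held 20 of the 33, FFGRD 3 with 7, MCD 2 with 5, FCD 2 with 4, MFGRD 1 with 3 and MCD 4 with 1. None of the 103 named genes had libraries apart in opposite directions in the sexes, and the other genes were not checked for this.

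Among the library measures, FFGRD 3 stood apart by its slope of -0.46 beside 0.72 to 0.76 in the other FFGRD libraries (gap 0.971 of the range) and by its sum of 19.7 M beside 11.3 to 12.6 M (0.847). MFGRD 1 had 16927 genes above 0 beside 13808 to 14206 (0.872). The chromosome 18 locus named Insig2 was at 56.2 in MCD 4 and listed at 0 in the other MCD libraries (1.0), and listed at 0 in MFGRD 3 beside 40.1 to 66.7 (0.881).

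Of the adipocyte genes, FABP4 stood at 215 in FCD 4 beside 7555 to 13873 (0.854), THRSP at 0.724 in FCD 4 beside 94.4 to 191 (0.852), and DGAT2 (0.866) and CEBPA (0.897) at 216 and 184 in MCD 1, the lowest of its group. COX7A1 stood at 28.4 in FFGRD 3 beside 3.97 to 4.5 (0.943). Lipid genes with 1 library apart were also ELOVL5 (0.885) in MCD 2, FITM2 (0.836) and PRKACA (0.944) in MFGRD 1 and VLDLR (0.941) in FFGRD 2, where it stood at 30.3 beside 80.3 to 85.4. ELOVL5 stood at 1148.5 in MCD 2 beside 1031 to 1044, a small difference that is large only against a narrow range.

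In FFGRD 3 the lowest values were those of FLRT3 (0.901), FKBP5 (0.884), LMO7 (0.94) and KLF6 (0.842), with LMO7 at 99.4 beside 651 to 734. In MCD 2 KCNK1 (0.842), TMEM158 (0.874) and PPP1R15A (0.879) were the highest and IRF2 (0.847) the lowest of the male controls. In FCD 2 TMCC3 (0.853), NDUFA12 (0.852), CCNE1 (0.885) and FZD8 (0.948) were the highest of the female controls, FZD8 with 245 beside 47.3 to 51.5. The activin subunit INHBA was at 222 in FFGRD 4 beside 23.05 to 24.99 (0.965). The remaining ones were SLC2A1 in MFGRD 4 (0.921), STC1 in FFGRD 2 (0.857), KLF6 (0.851) and arntl (0.855) in MFGRD 3, CMC4 in FFGRD 1 (0.844) and CFAP45 in FCD 1 (0.881).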

How the results depend on the processing

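The count of 0 called genes held in all 6 comparisons and under all 145 alternative fits. The smallest adjusted p over the alternatives was 0.193 with both sexes together (without MFGRD 3), 0.257 in males, 0.1 in females, 0.711 for the difference between the sexes, 0.326 in preadipocytes and 0.693 for the difference between the stages. The number of genes at an unadjusted p under 0.05 moved more, from 85 to 376 with the span slope as a covariate, 458 with library weights, 206 of 11060 without the 5 libraries of low slope, 192 of 18573 with no filter, 189 of 15610 single transcripts and 50 of 9854 at a mean of at least 50. Leaving out 1 library it ran from 40 (without FCD 2) to 231 (without FFGRD 3), and in males from 58 to 827 (without MFGRD 1). The cause of these shifts was not tested.

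To look for pairing, the mean of its group was subtracted from the log2 values of each gene, and these deviations were correlated. The values themselves correlated at 0.69 to 0.97 among the 16 differentiated libraries. The deviations of same-numbered FGR and control libraries correlated at -0.65 to 0.38 in differentiated cells, with 2 of 8 best matched to their own number. In preadipocytes they correlated at -0.38 to 0.81, with 3 of 8, all female. Not every pair was above 0.1 in either sex, so the libraries were taken to share only a number. With the replicate block 0 genes were called in every comparison, and 72 genes with both sexes together, 80 in males and 222 in females had an unadjusted p under 0.05. Between the stages 15 of 16 same-numbered correlations of such deviations were positive and that of FFGR 2 and FFGRD 2 was -0.50. Most libraries were best matched to their own number across the stages. The main fit of the difference between the stages took the 32 libraries as unpaired, so its p-values and SEs leave out any such pairing.

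Of the genes chosen by the rule for names, 0 of 2775 alternative values were called, and 100 had the opposite sign, each of a gene that did not pass the test. With quantile normalization these were FABP4 (-0.10), THRSP (-0.12), ADIPOQ (-0.020) and LRRFIP1 (-0.059), with library weights FABP4 (-0.16), THRSP (-1.34), ADIPOQ (-0.63), CEBPA (-0.12) and LRRFIP1 (-0.0095), and with a pseudocount of 0.1 KLB (0.35). Without the 5 libraries of low slope they were THRSP (-0.76), ADIPOQ (-0.20), CEBPA (-0.090), LRRFIP1 (-0.033), TPM2 (-0.37), NEXN (0.0038), LMO7 (0.32), LIPA (0.0069), HSD17B4 (-0.084) and IRF2 (-0.0022). Leaving out 1 library gave FABP4 -0.49 to 0.78, THRSP -0.84 to 0.61, KLB -1.13 to 0.42, ADIPOQ -0.88 to 0.72, DGAT2 -0.89 to 0.57, LIPE -1.17 to 0.038, PLIN4 -1.12 to 0.14, PLIN1 -0.82 to 0.46, ABCD2 -0.020 to 0.74, PDK4 -0.17 to 0.57, CEBPA -0.36 to 0.57, ACSL1 -0.66 to 0.25, LRRFIP1 -0.12 to 0.18, TPM2 -0.028 to 0.58, LMO7 -0.34 to 0.34 and POSTN -0.38 to 0.15. Of the differences between libraries (FGR minus control), that in genes above 0 ran from -49.4 to 470.4, that in the share of the 10 highest genes from -0.14 to 1.88 percentage points, that in the span slope from -0.065 to 0.15, and that on the first principal component from -27.0 to 6.95.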
